A study of Mus musculus with 4 samples.

Results

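The 10 genes described here encode the receptors and the ligand of the BAFF system and a group of B lineage transcription regulators. They are Tnfrsf13b, Tnfrsf13c, Tnfrsf17, Tnfsf13b, Ebf1, Pax5, Bach2, Ikzf3, Spib and Pou2af1, and they were taken by symbol from the 33696 gene rows of the deposited matrices. All 10 had a row in each of the 4 libraries. Single liver cells had been collected by fine-needle aspiration (FNA) from male C57BL/6J mice on the FPC diet, which is rich in fructose, palmitate, cholesterol and trans-fat and was started at 7 weeks of age. P-LC24 held mice given 0.05% cholesterol and P-HC24 mice given 1.25%, both sampled at week 24 in the progression phase. I-LC32 held the mice kept on 0.05% and I-HC32 the mice moved from 1.25% to 0.05% at week 24, both sampled at week 32 (intervention phase). Each library pooled 12 biopsies, 4 from each of 3 mice, and the same mice gave both time points, so that every condition is 1 library of 1 set of mice.

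BAFF, the product of Tnfsf13b, is a survival factor for mature B cells that is made mainly by myeloid and stromal cells. It binds 3 receptors. BAFF-R (Tnfrsf13c) carries the survival signal in resting B cells through the alternative NF-kB pathway, TACI (Tnfrsf13b) also binds the related ligand APRIL and is high on marginal zone and B-1 cells, and BCMA (Tnfrsf17) serves long-lived plasma cells. EBF1 and PAX5 set up and hold B cell identity, BACH2 restrains the plasma cell program, Aiolos (Ikzf3) is an Ikaros family zinc finger protein, SPI-B is an ETS factor, and OBF-1 (Pou2af1) is the coactivator of the octamer proteins.

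B cells were sorted in silico on UMIs (unique molecular identifiers, 1 per captured transcript) of genes that are not among the 10. Follicular-type B cells, gated on Ighd and Fcer2a, numbered 2087, 1973, 2100 and 1364. Here and below, 4 values in a row stand in the order in which the libraries were introduced, P-LC24 first and I-HC32 last. B-1-type B cells, gated on a panel of 10 genes that includes Zbtb32, Bhlhe41, Cd5, Cd9 and Ctla4, numbered 373, 1128, 1188 and 1737. Another 552, 1166, 1207 and 1502 B cells met neither gate and were left out of both classes. The 2 classes are therefore not all B cells. Fcer2a, the low-affinity IgE receptor, stood at 188 to 326 UMIs per 1000000 (CPM) in follicular-type cells and at 1.69 to 3.36 in B-1-type cells, and Zbtb32, a zinc finger repressor of B-1 cells, at 0.926 to 2.64 and at 116 to 130, but these genes set the gates and are no check of them. Among follicular markers that no gate used, Icosl, the ligand of ICOS, stood at 31.0 to 52.2 and at 2.06 to 2.80 CPM, and Fcmr, the IgM Fc receptor, at 402 to 532 and at 250 to 325 CPM. Cd5, which marks the B-1a subset, was at 4.13 to 13.5 CPM in B-1-type cells, but it is in the gating panel and is no check. Csf1r and the T cell gene Cd3e were at most 1.92 CPM in either class. The gate limited Cd3e, so its value is no check either.

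Some facts of the libraries touch the results. The 4 libraries kept 4930 to 6978 cells with 38509673 to 77017579 UMIs, and the median cell held 4912 to 5662 UMIs among follicular-type cells and 12790 to 13081 among B-1-type cells. Lambda light chain cells made up 46.2% of the B-1-type cells of I-LC32 against 8.16% to 10.5% in the other libraries, so values of B-1-type cells with kappa light chains are given where they differ. Pairs of libraries shared 12 to 29 cell barcodes, at most 0.588% of the cells of the first library, and leaving them out kept every member's ratio and class difference within its interval or on its side of the threshold. Lyz2, an abundant macrophage transcript found free in cell suspensions, was at 14.9, 112, 19.8 and 200.1 CPM in follicular-type cells and at 6.38, 113, 135 and 115 CPM in B-1-type cells, beside 19, 271, 44 and 475 Gata6-type macrophages. The macrophage genes Gata6 and Vsig4 were at 0 in both B cell classes because the gate left out cells with a UMI of either, so this is no check. Intervals below are 95% intervals of counting error alone, since 1 library per condition allows no test between diets.

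Tnfrsf13b and Tnfrsf13c were both found in follicular-type and in B-1-type cells. Their promoters are shown because the results on the receptors turn on these genes. Tnfrsf13b lies on GRCm39 chr11:61017574-61040434 on the plus strand and Tnfrsf13c on chr15:82105944-82108580 on the minus strand. The 250 bases before each RefSeq start site, placed on GRCm39 at chr11:61017331-61017580 and chr15:82108582-82108831, read 5′ to 3′ on the gene's own strand, with the 4-base ETS core (GGAA or its complement TTCC) in capitals:
Tnfrsf13b: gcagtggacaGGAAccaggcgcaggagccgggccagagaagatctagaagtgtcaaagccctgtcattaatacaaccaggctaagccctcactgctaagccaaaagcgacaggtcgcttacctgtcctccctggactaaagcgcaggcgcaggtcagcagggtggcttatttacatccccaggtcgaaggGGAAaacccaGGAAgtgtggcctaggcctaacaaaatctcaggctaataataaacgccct
Tnfrsf13c: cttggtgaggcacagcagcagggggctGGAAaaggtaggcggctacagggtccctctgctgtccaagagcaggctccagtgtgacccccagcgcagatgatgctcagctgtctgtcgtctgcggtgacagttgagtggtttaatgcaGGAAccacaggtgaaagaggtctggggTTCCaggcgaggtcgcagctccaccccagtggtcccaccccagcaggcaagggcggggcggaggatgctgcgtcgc

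Each sequence held 3 cores, which is also the median over all 32851 RefSeq promoters, of which 93.4% held at least 1. Their GC content was 54.0% for Tnfrsf13b and 63.2% for Tnfrsf13c. Windows of 300 bases around the start sites, which the RefSeq table gave for 9 of the 10 genes, were also searched on both strands for longer motifs. These were the EBF palindrome (in 0.904% of all windows), the octamer ATTTGCAT (1.74%), the SPI-B and PU.1 core GAGGAAGT (3.20%), the Ikaros motif TGGGAA (25.6%), the BACH2 and MAF element (0.155%) and the NF-kB motif (1.63%). The SPI-B core holds the ETS core within it. Among the 11 windows of the 9 genes, 1 match was found, an Ikaros motif on the opposite strand 207 bases before the second start site of Ebf1. These are matches of letters in short windows and not sites.

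TACI transcripts were denser in B-1-type than in follicular-type cells of every library. Tnfrsf13b stood at 90.4, 66.4, 78.5 and 59.8 CPM in follicular-type cells, and at 140.6, 108.4, 148.4 and 113.7 CPM in B-1-type cells. The 2 sets of values did not overlap, but how many of all genes part this way was not counted. Summed counts of the 2 classes were compared over the 4 libraries, with the library as a block, by edgeR's quasi-likelihood test, which scales by TMM. The difference B-1-type minus follicular-type was 1.00 ± 0.061 (log2, SE) for Tnfrsf13b with an adjusted p of 8.76e-07. Over all 12522 genes tested, 30.1% were higher and 27.7% were lower in B-1-type cells at an adjusted p under 0.05, so a call alone sets no gene apart. Cells of at least 3000 UMIs were also thinned to 3000, which left out 41 to 76 follicular-type cells per library and no B-1-type cells. After thinning, 16.3% to 22.7% of follicular-type and 27.1% to 34.5% of B-1-type cells held a Tnfrsf13b UMI. Over all cells before thinning the shares were 27.9% to 35.8% and 72.3% to 80.1%. T cells, taken as a class that should hold few of these transcripts, gave 2.28% to 3.00% after thinning and 5.05% to 6.06% before, and NK cells at most 0.459% and 0.429%.

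BAFF-R went the other way by a smaller step. Tnfrsf13c stood at 67.8, 71.1, 85.0 and 80.6 CPM in follicular-type cells and at 38.8, 46.2, 72.3 and 64.9 CPM in B-1-type cells, lower in the latter within each of the 4 libraries although the ranges overlapped. Both classes had their 2 lower values at week 24. The difference was -0.27 ± 0.084 (log2, SE) with an adjusted p of 0.0199 by edgeR. That call is not firm. The adjusted p was 0.161 with a mitochondrial limit of 5%, 0.0566 with a stricter gate, 0.0599 without P-LC24, 0.100 without P-HC24 and 0.226 without the library block. The lambda cells of I-LC32 carried the highest level of the gene among B-1-type cells, 86.1 CPM against 60.6 in kappa cells of that library. With kappa cells alone the difference was -0.34 ± 0.074 at an adjusted p of 0.00289. T cells held the gene at no more than 1.64 CPM.

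The ratio of the receptors therefore differed between the classes. UMIs of Tnfrsf13c per UMI of Tnfrsf13b were 0.748, 1.06, 1.08 and 1.36 in follicular-type cells and 0.276, 0.426, 0.487 and 0.571 in B-1-type cells, counted in cells of at least 3000 UMIs. Every follicular-type value lay above every B-1-type value, but how many pairs of genes part this way was not counted. The ratio restates the separate differences of Tnfrsf13b and Tnfrsf13c given above, and the call for Tnfrsf13c was not firm. The genes may be captured with unequal efficiency by a 3′ kit, so the ratio is read between classes and not as a ratio of molecules. Among cells thinned to 3000 UMIs, 12.2% to 18.7% of follicular-type and 23.3% to 27.3% of B-1-type cells showed Tnfrsf13b alone, and 13.5% to 17.7% and 7.24% to 12.7% showed Tnfrsf13c alone.

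BCMA transcripts were close to absent from both classes. Tnfrsf17 (chr16:11118528-11137938, plus strand) gave 0 to 2 UMIs per library in follicular-type cells and 0 to 2 in B-1-type cells, too few for the filter on low counts, so it entered no test. A count of 0 among the 1737 B-1-type cells of I-HC32 allows up to 0.114 CPM. Plasma-type cells, gated on Jchain with Sdc1 or Derl3, numbered 7 in all libraries, and 29 UMIs of the gene lay in the 1 such cell of P-HC24. Another 3 UMIs lay in 1 of the 4 plasma-type cells of I-LC32, and the plasma-type cells of P-LC24 and I-HC32 had none.

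**Figure D1:**
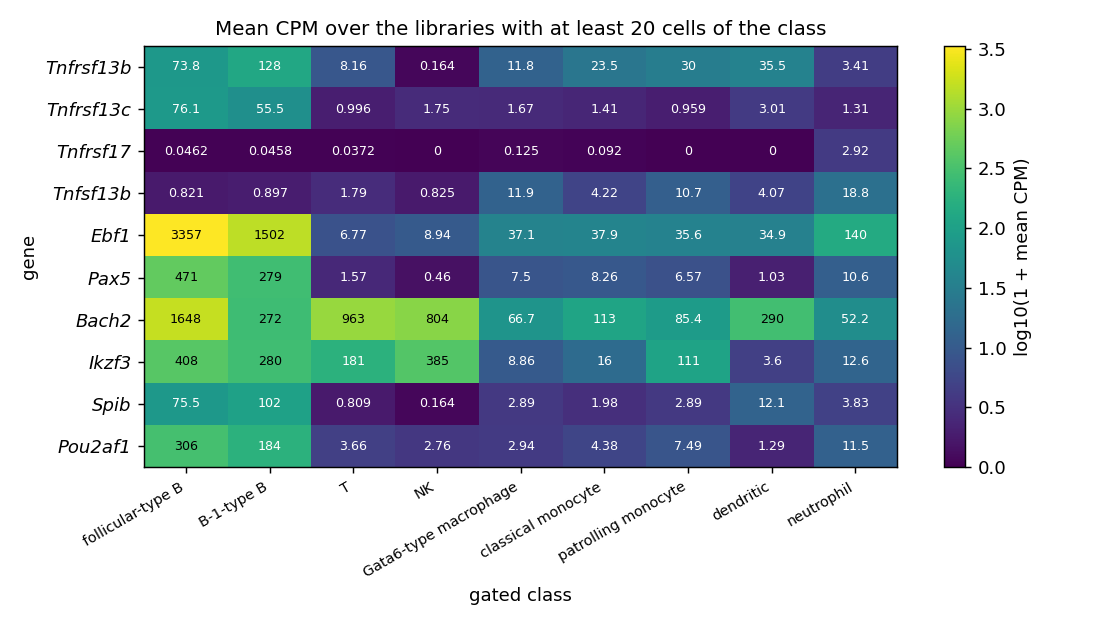
Heat map of the mean CPM of the 10 genes (rows) in 9 gated classes (columns), averaged over the libraries that hold at least 20 cells of the class, with colour as log10(1 + CPM) and the mean printed in each cell. Bach2 reaches into T, NK and dendritic cells and, at lower levels, monocytes, and Ikzf3 into T and NK cells and patrolling monocytes. Tnfrsf13b reaches into monocytes, dendritic cells and Gata6-type macrophages. Tnfsf13b lies at 4.07 to 18.8 in the myeloid classes against 0.821 and 0.897 in the B cell classes.

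Across the other classes the receptors also parted. Classical monocytes held Tnfrsf13b at 27.6, 21.7, 25.7 and 19.1 CPM, while Tnfrsf13c stood there at 0.736 to 1.96 CPM. Patrolling monocytes held 17.3 to 45.8 CPM and dendritic cells 15.4 to 52.4 CPM of Tnfrsf13b. In T cells, 62 to 82 UMIs of Tnfrsf13b were counted per library beside 4 to 15 of Tnfrsf13c. The 2 B cell classes of the same libraries gave 0.276 to 1.36 UMIs of Tnfrsf13c per UMI of Tnfrsf13b. Subtracting the estimated free RNA left Tnfrsf13b at 16.8 to 26.2 CPM in classical monocytes and 6.36 to 7.92 CPM in T cells. The source of the T cell counts was not tested.

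The ligand was read in the myeloid cells. Tnfsf13b (chr8:10056467-10089072, plus strand) stood at 14.0, 14.3, 8.72 and 12.6 CPM in Gata6-type macrophages, from 9, 92, 11 and 135 UMIs. Neutrophils gave 29.8, 11.7, 23.4 and 10.1 CPM, but from 17, 7, 2 and 1 UMIs. Patrolling monocytes gave 3.82, 13.6, 10.0 and 15.3 CPM from 2, 11, 3 and 8 UMIs, and classical monocytes 2.83, 4.78, 5.37 and 3.91 CPM. T cells were at 1.48 to 2.23 CPM, follicular-type B cells at 0.369 to 1.37 and B-1-type B cells at 0.734 to 1.06. By mean level the order was neutrophils at 18.8 ± 9.42 CPM (SD, n = 4 libraries), Gata6-type macrophages at 11.9 ± 2.87 (n = 3, the 19 cells of P-LC24 left out), patrolling monocytes at 10.7 ± 5.09 and classical monocytes at 4.22 ± 1.11 (n = 4 each). The first 3 of these lie within their spread of each other. The macrophages carried Gata6, Vsig4 and Prg4, but these genes helped to set their gate and are no check of it. Clec4f, the defining Kupffer cell gene, set no gate. It was at 0 in 3 libraries, so no level there is read as one of Kupffer cells. In the 19 cells of P-LC24 it was at 6.24 CPM, and whether these include Kupffer cells was not tested.

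**Figure D2:**
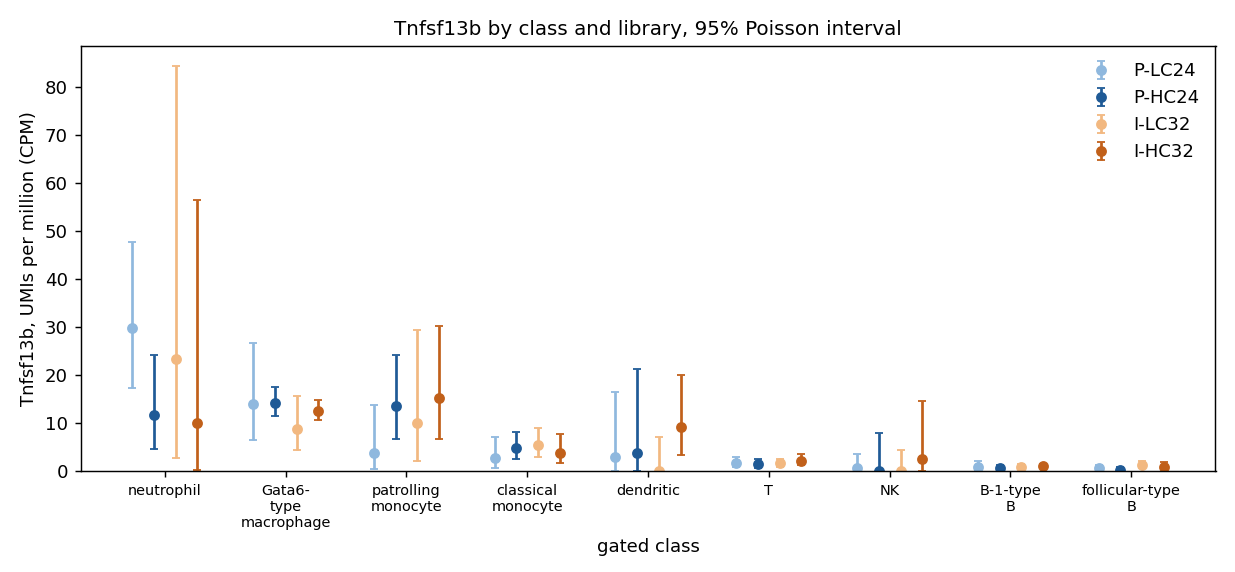
Tnfsf13b in CPM (vertical axis) in 9 gated classes (horizontal axis), 1 point per library with its exact 95% Poisson interval. Macrophages lie between 8.72 and 14.3 with short intervals in P-HC24 and I-HC32, and the B cell classes lie at or under 1.37.

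No diet difference in the ligand could be resolved. The log2 ratio of P-HC24 to P-LC24 in Gata6-type macrophages was 0.03 with an interval of -0.96 to 1.2, and that of I-HC32 to I-LC32 was 0.53 with an interval of -0.35 to 1.57. P-LC24 rested on 19 cells and I-LC32 on 44, and P-LC24 was the only library with Clec4f in this class. Among all genes compared in these macrophages, 22.9% were at least 1.2-fold higher and 39.5% lower in the first comparison, and 15.3% and 34.6% in the second. Patrolling monocytes gave 1.83 (-0.37 to 5.04) and 0.61 (-1.45 to 3.16), and classical monocytes 0.76 (-0.94 to 2.83) and -0.46 (-1.92 to 0.90).

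Among the lineage factors, Bach2 separated the 2 B cell classes most. It stood at 1949, 1277, 1935 and 1431 CPM in follicular-type cells and at 264, 242, 313 and 271 CPM in B-1-type cells. The B-1-type values lay below those of T cells (800.4 to 1050) and NK cells (687 to 942) in every library. They overlapped those of dendritic cells, at 219, 280, 371 and 279 CPM. B cells that met neither gate lay between the 2 classes, at 1009, 640, 1116 and 747 CPM. The difference B-1-type minus follicular-type was -2.37 ± 0.083 (log2, SE) with an adjusted p of 3.96e-08 by edgeR. Thinned to 3000 UMIs, 91.2% to 97.8% of follicular-type and 42.7% to 47.9% of B-1-type cells held a Bach2 UMI. Subtracting free RNA lowered the B-1-type value of I-LC32, the library with the highest estimate of free RNA in that class (6.27%), from 313 to 272 CPM. The estimate was made per class from Trbc2, Nkg7, Lyz2 and C1qa, and was 0.983% in follicular-type cells of I-LC32. Why it differs between classes of a library was not tested, so 272 CPM is uncertain.

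EBF1 and PAX5 transcripts were less dense in B-1-type than in follicular-type cells. Ebf1 stood at 3868, 3034, 3416 and 3110 CPM in follicular-type cells and at 1677, 1344, 1468 and 1517 CPM in B-1-type cells. The groups did not overlap, again with no count of this over all genes. The difference was -0.96 ± 0.049 with an adjusted p of 2.83e-07. Pax5 stood at 631, 367, 495 and 392 CPM against 305, 208, 301 and 301 CPM, a difference of -0.54 ± 0.086 with an adjusted p of 5.26e-04. After thinning, at least 90.5% of the cells of either class held an Ebf1 UMI, also among lambda cells, while T cells stayed at or under 3.06%. Pax5 was held by 60.4% to 78.4% of follicular-type cells, 42.0% to 56.0% of B-1-type cells and at most 0.741% of T cells after thinning.

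The 3 other factors differed by smaller steps. Pou2af1 was lower in B-1-type cells, at 221, 164, 172 and 180.1 CPM against 372, 265, 272 and 315, with a difference of -0.53 ± 0.054 and an adjusted p of 3.02e-05. Ikzf3 stood at 246, 226, 338 and 309 CPM against 478, 304, 432 and 417, with a difference of -0.34 ± 0.089 and an adjusted p of 0.00907, which became 0.0689 without the library block. NK cells held Ikzf3 at 224 to 460.3 CPM, which overlaps the follicular-type range, and T cells at 104 to 210.1 CPM. Spib was the other member besides Tnfrsf13b that was higher in B-1-type cells, at 117, 96.4, 94.6 and 98.1 CPM against 92.0, 73.2, 77.3 and 59.6, with a difference of 0.64 ± 0.073 and an adjusted p of 5.97e-05.

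**Figure D3:**
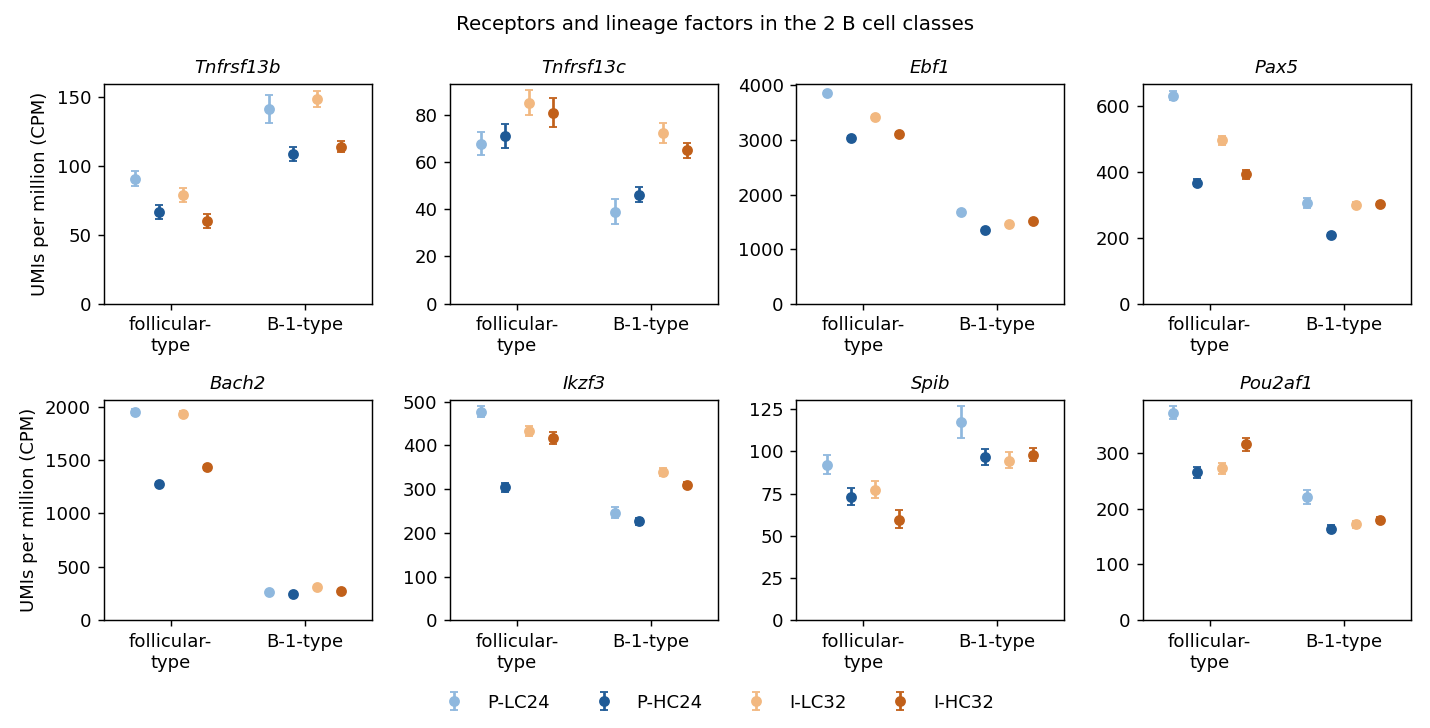
CPM of the 8 genes expressed in B cells (vertical axes, each starting at 0) in follicular-type and B-1-type cells (horizontal axes), 1 point per library with its exact 95% Poisson interval. Tnfrsf13b and Spib are higher in B-1-type cells and the other 6 are lower, with Bach2 at 242 to 313 against 1277 to 1949.

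In all, 9 of the 10 genes were tested between the classes, of which 2 were higher, 6 were lower and Tnfsf13b did not pass (0.30 ± 0.37, adjusted p of 0.510). The median of the 9 was -0.34 against 0.00 for all genes tested. Differences are relative to the TMM scaling. Without it the median of all genes moved to -0.20, and the members moved with it (Tnfrsf13b to 0.80, Spib to 0.44, Tnfrsf13c to -0.47), each in the same direction as before. Gene span moved with the contrast as well: 41.0% of genes that span at least 100 kb were lower in B-1-type cells and 19.97% of genes under 20 kb. Ebf1 spans 391 kb, Bach2 347 kb and Pax5 186 kb, and the part of span in their differences was not tested.

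Genes of the same pathway were set beside the receptors. Of 16 BAFF and APRIL signalling genes, 15 were tested, of which 2 were higher in B-1-type cells, 10 were lower and 3 did not pass, with a median difference of -0.32. Nfkb2, the precursor of the alternative NF-kB pathway, stood at 62.4, 63.4, 72.9 and 72.4 CPM in follicular-type and 32.8, 28.9, 42.8 and 33.0 CPM in B-1-type cells, a difference of -0.79 ± 0.075. Akt1, a survival kinase, and Traf1, an adaptor induced by NF-kB, were the higher pair, at 0.82 ± 0.098 and 0.81 ± 0.135. Syk, which couples the B cell receptor and BAFF-R, had a difference of 0.00 ± 0.049. Among 9 survival genes, 8 were tested, with 5 higher and 2 lower. The kinase gene Pim1 was at 148 to 202 CPM in follicular-type and 362 to 539 CPM in B-1-type cells (1.60 ± 0.130), Mcl1, a BCL-2 family protein that B cells need, at 326 to 482 and 590.4 to 807 CPM (1.01 ± 0.071), and Bcl2l1, which encodes BCL-XL, at 3.62 to 6.23 and 0.856 to 2.66 CPM (-1.27 ± 0.219).

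Other regulators gave the factors their context. Of 18 further B lineage and plasma cell factors, 4 were higher in B-1-type cells, 10 were lower and 4 did not pass. Prdm1, which encodes the plasma cell regulator BLIMP-1, stood at 2.70, 0.738, 1.79 and 2.64 CPM in follicular-type and at 57.4, 42.1, 29.2 and 35.4 CPM in B-1-type cells, a difference of 4.61 ± 0.206. Klf2, a quiescence and homing factor, was also higher (0.66 ± 0.064), while Mef2c, a MADS box factor, was at 1582 to 2541 CPM in follicular-type and 394 to 627 CPM in B-1-type cells (-1.65 ± 0.063). Lef1, a WNT pathway factor of early B cells, was at 6.59 to 13.7 and 0.563 to 3.35 CPM (-2.26 ± 0.406). Of 11 genes listed as PAX5 and EBF1 targets, 4 were higher, 5 were lower and 2 did not pass. Vpreb3 was at 94.7 to 201 CPM in follicular-type and 2.06 to 3.55 CPM in B-1-type cells (-5.42 ± 0.160). Cr2, the complement receptor CD21, differed by -4.13 ± 0.138, Ralgps2 by -0.69 ± 0.089 and Cplx2, at 0.719 to 2.95 against 6.34 to 14.4 CPM, by 2.63 ± 0.356. Of 7 immediate early genes, which cell handling can raise, 2 were higher, 2 were lower and 3 did not pass. These were Jun (1.2 ± 0.076) and Egr1 (0.92 ± 0.118) on the higher side and Nr4a1 (-0.61 ± 0.121) and Dusp1 (-0.46 ± 0.095) on the lower, while Junb gave -0.21 ± 0.098. All differences of this kind are log2 values with SE from the same edgeR fit, and those called higher or lower had adjusted p-values of at most 0.0159.

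The diets were compared within each class, P-HC24 with P-LC24 and I-HC32 with I-LC32, for the 8 members that reached 100 UMIs and 10% of the cells. Among follicular-type cells of the progression phase, 7 of the 8 were at least 1.2-fold lower in P-HC24 and none was higher. Of all 5778 genes compared there, 39.3% were lower and 13.8% higher, with a median log2 ratio of -0.17. Pax5 had the lowest ratio of the members, -0.78 with an interval of -0.84 to -0.73, at percentile 1.71 of all genes compared. Ikzf3 followed with -0.65 (-0.71 to -0.59), then Bach2 with -0.61 (-0.64 to -0.58), Pou2af1 with -0.49, Tnfrsf13b with -0.45, Ebf1 with -0.35 and Spib with -0.33. Tnfrsf13c stood apart at 0.07 (-0.08 to 0.21).

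Long genes were lower as a body in the same library. Genes that span at least 100 kb had a median log2 ratio of -0.40, and 74.8% of them were at least 1.2-fold lower. Genes of 20 to 100 kb had a median of -0.24 with 46.6% lower, and genes under 20 kb had 0.11 with 13.3% lower. Ebf1 at -0.35 lay above the median of the long genes, whereas Pax5 and Bach2 lay below it. Ikzf3 spans 81.1 kb, Pou2af1 26.4 kb and Tnfrsf13b 22.9 kb, and each lay below the median of its span class. Spib at 6.08 kb and Tnfrsf13c at 2.64 kb are the short members, and Spib was lower while its span class was not. The median mitochondrial share of follicular-type cells was 3.88% for P-LC24 and 5.01% for P-HC24. The part of span and mitochondrial share in these ratios was not tested.

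B-1-type cells of the progression phase gave 5 of 8 members at least 1.2-fold lower in P-HC24, where 40.0% of 8003 genes were lower and 13.9% higher. These were Pax5 with -0.55 (-0.63 to -0.46), Pou2af1 with -0.43, Tnfrsf13b with -0.38, Ebf1 with -0.32 and Spib with -0.28. Relative to the median gene (-0.17) the count was 1, Pax5. Bach2 and Ikzf3, at -0.13 and -0.12, lay within 0.05 of that median, unlike in follicular-type cells. Tnfrsf13c was 0.25 (0.03 to 0.48), and 0.28 (0.05 to 0.53) in kappa cells alone, which is past 1.2-fold, where 40.5% of genes were lower and 14.4% higher. With a mitochondrial limit of 5% it was 0.68.

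**Figure D4:**
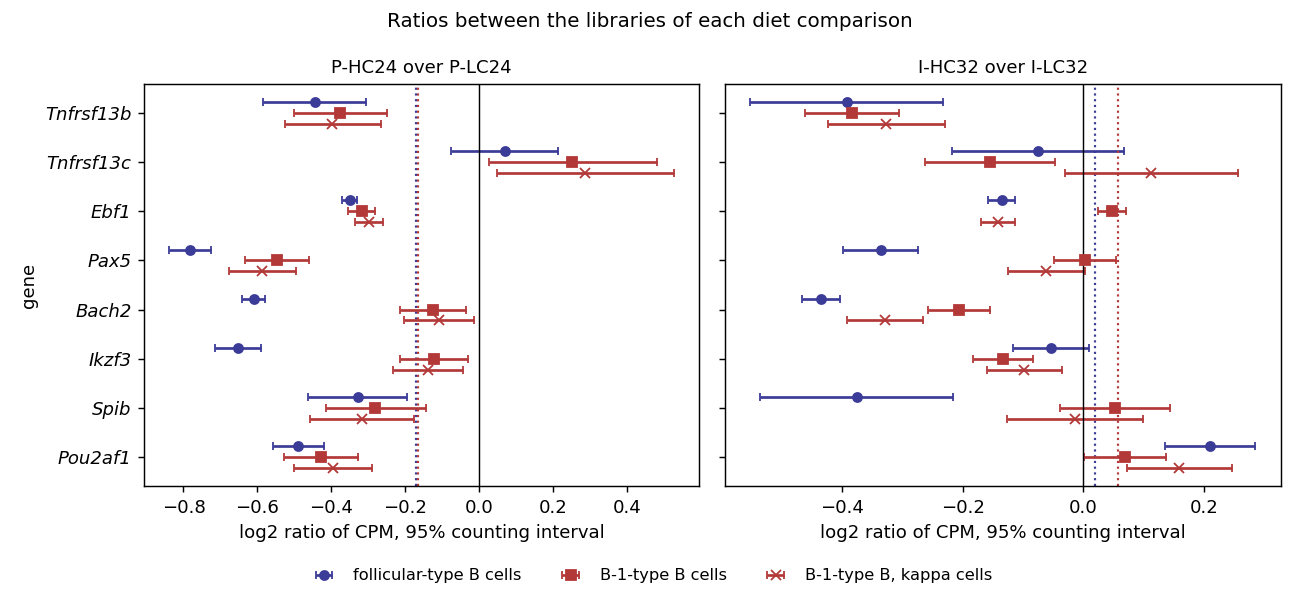
Log2 ratios of CPM (horizontal axes) of the 8 genes compared (vertical axis), for P-HC24 over P-LC24 (left) and I-HC32 over I-LC32 (right), in follicular-type, B-1-type and kappa B-1-type cells with exact 95% counting intervals. Dotted lines are the medians of all genes compared (-0.17 and -0.17 left, 0.02 and 0.06 right). Tnfrsf13b lies left of them in all 4 cases.

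The intervention phase carried a smaller shift of all genes, with medians of 0.02 in follicular-type and 0.06 in B-1-type cells. Follicular-type cells of I-HC32 had 4 of 8 members at least 1.2-fold lower than those of I-LC32 and none higher, where 7.84% of 6109 genes were lower and 11.9% higher. The 4 were Bach2 with -0.43 (-0.47 to -0.40, percentile 1.96), Tnfrsf13b with -0.39 (-0.55 to -0.23, percentile 2.72), Spib with -0.38 (-0.54 to -0.22, percentile 3.21) and Pax5 with -0.34 (-0.40 to -0.27, percentile 4.16). The other 4 were Ebf1 with -0.14, Tnfrsf13c with -0.08, Ikzf3 with -0.05 and Pou2af1 with 0.21 (0.14 to 0.29). Long genes did not move with this comparison as they did in the progression phase: those of at least 100 kb had a median of -0.05 with 12.1% lower. As UMIs per cell rather than as CPM, 1 member, Bach2, stayed past 1.2-fold, because follicular-type cells of I-HC32 held more UMIs (median 5662 against 4912).

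In B-1-type cells of the intervention phase, 1 of 8 members, Tnfrsf13b with -0.38 (-0.46 to -0.31), was at least 1.2-fold lower, against 11.3% of 8351 genes lower and 18.9% higher. The lambda cells of I-LC32 bear on this comparison. With kappa cells alone, where 8.38% of genes were lower and 16.7% higher, Tnfrsf13b was -0.33 (-0.42 to -0.23) and Bach2 joined it with -0.33 (-0.39 to -0.27), and Tnfrsf13c went from -0.15 (-0.26 to -0.05) to 0.11 (-0.03 to 0.26). After subtraction of free RNA, Bach2 in all B-1-type cells went from -0.21 to -0.02, with the uncertain estimate of 6.27% for I-LC32 against 1.44% for I-HC32. Pax5 (0.00), Ebf1 (0.05), Spib (0.05) and Pou2af1 (0.07) were near the median in all B-1-type cells.

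Tnfrsf13b was thus the 1 member past 1.2-fold in the same direction in both classes and both phases, with ratios of -0.45 and -0.39 in follicular-type cells and -0.38 and -0.38 in B-1-type cells. The 4 ratios are not independent, since the classes share their libraries and the phases share their mice. How many of all genes were past 1.2-fold in all 4 was not counted, so the pattern sets no gene apart. Over 12 alternatives the ratio stayed below 0 in each of the 4, between -0.51 and -0.21, but not always past 1.2-fold. It was past it in 12 (progression) and 11 (intervention) alternatives in follicular-type cells, and in 10 and 11 in B-1-type cells. Lyz2, given above per library, was higher in P-HC24 and I-HC32 in follicular-type cells. In B-1-type cells it was higher in P-HC24 but lower in I-HC32 than in I-LC32. After subtraction of free RNA the ratios of Tnfrsf13b were -0.45 and -0.40 in follicular-type cells and -0.37 and -0.42 in B-1-type cells. The part of free RNA in these ratios was not tested.

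**Figure D5:**
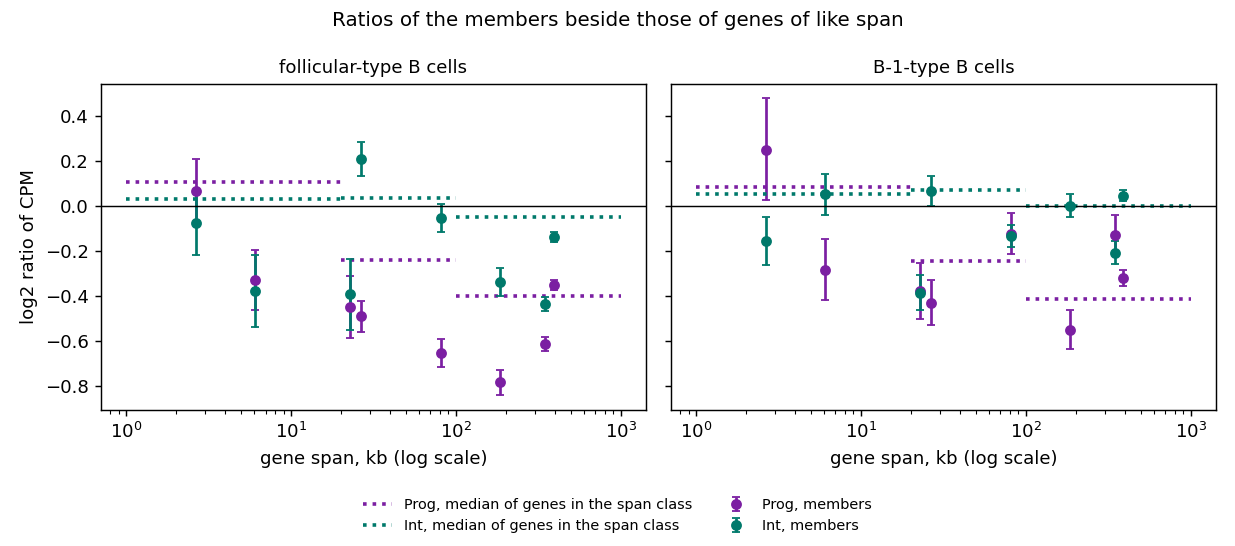
Log2 ratio of CPM (vertical axes) against gene span in kb (horizontal log axes) for the 8 members in follicular-type (left) and B-1-type cells (right), with exact 95% counting intervals and, as dotted lines, the median ratio of all genes compared in each span class. In the progression phase (Prog) the dotted medians fall from 0.11 to -0.40 (left) and from 0.08 to -0.41 (right) with span, and in the intervention phase (Int) they stay between -0.05 and 0.07.

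The pathway lists were read against the shares of all genes given above. In follicular-type cells, 6 of 15 signalling genes compared were at least 1.2-fold lower in P-HC24 and 1 higher, with a median of -0.21, where 39.3% of all genes were lower. In the intervention phase 2 were lower and 2 higher. Traf1 was higher in both phases (0.33 and 0.65), and Traf6, a signalling adaptor, in the second (0.36). Of the other lineage factors, 8 of 15 were lower in the progression phase and 1, Id3, an inhibitor of E proteins, was higher (0.32), while 3 were lower and 3 higher in the intervention phase. B-1-type cells gave 9 of 16 lower and 2 higher in the progression phase, and 1 lower and 8 higher in the intervention phase, the latter with a median of 0.21 against 0.06 for all genes, of which 18.9% were higher.

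The PAX5 and EBF1 targets of follicular-type cells had 5 of 10 lower in the progression phase, with a median of -0.22 against -0.17 for all genes, of which 39.3% were lower. In the intervention phase 5 of 10 were lower as well, there with a median of -0.25 against 0.02 for all genes, of which 7.84% were lower. B-1-type cells gave 2 of 9 lower and none higher in the progression phase, and none lower and 2 higher in the intervention phase. Ralgps2 was lower in both phases in follicular-type cells (-0.69 and -0.36). Cr2 passed 1.2-fold there in the progression phase (-0.97, then -0.24) and Vpreb3 in the intervention phase (0.03, then -0.74), and the difference between phases was not tested. Id3 and Traf6 were named after their values were seen.

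Each gene's likeness to others was described over 38 sums of a class in a library, as Pearson's r of log2(CPM + 1), without a test because sums of a library share its depth and handling. Tnfrsf13b was most like Irf4 (0.89), Mtss1 and Ppfibp2. Tnfrsf13c was most like Gm56536, Cacna1i (0.94 each) and 2010309G21Rik. Tnfsf13b followed the myeloid genes Lrg1 (0.90), Bst1 and Clec4d. Ebf1 was most like Ly6d (0.96), Gm31243 and Bank1, Pax5 like Chst3 (0.95), Gm43388 and Rapgef5, and Pou2af1 like Ly6d (0.97), Pax5 and Gm43388. Bach2 followed Matr3 (0.93), Lrba and Ankrd10, Ikzf3 followed Gm44148 (0.92), C1galt1 and St6galnac3, and Spib followed Cacna1i (0.92), Dennd5b and Fcrla. The likest gene of Tnfrsf17 was Ttc1 (0.73), then Krr1 and Acadsb, from a handful of UMIs.

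Counts of some members can be touched by neighbours in the annotation. Bach2 overlaps Bach2it1 and Pou2af1 overlaps Gm47828 on the same strand, where a read shared by both is not assigned, and Ebf1, Pax5 and Bach2 have antisense genes.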

How the data were processed

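The deposited matrices hold UMI counts as the authors obtained them, with no normalization, from a 10x 3′ kit with Cell Ranger 9.0.1 and a GRCm39 reference. The submitters' processing notes also name Seurat 5.3. Diet and week in the labels gave each library its condition. Cells with at least 500 UMIs, at least 300 genes and at most 10% mitochondrial UMIs were kept, and the top Scrublet scores (scanpy 1.11.5), 0.8% per 1000 cells, were removed. Cells were gated on panel UMIs. A Gata6-type macrophage needed 20 UMIs of Gata6, Timd4, Vsig4, Adgre1 and Prg4, with at least 3 from Gata6, Timd4 and Vsig4. A B cell needed 5 UMIs of a B cell panel that includes Cd79a, Cd79b and Ms4a1, and 5 times the UMIs of other panels. It could hold no UMI of Gata6, Timd4 or Vsig4. A follicular-type cell needed 2 UMIs of Ighd and Fcer2a and could hold at most 1 UMI of the B-1 panel. A B-1-type cell needed 5 UMIs of its panel, and at least 5 times its UMIs of Ighd and Fcer2a. The gate thus favours deep B-1-type cells, and gates on UMIs per 10000 were an alternative.

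Summed UMIs were expressed as CPM with exact Poisson intervals, ratios with exact conditional binomial intervals, and shares of cells with exact Clopper-Pearson intervals, all at 95% and for counting error only. A count of 0 was given the limit of 3 counts. A ratio needed 100 UMIs in the 2 libraries together and detection in 10% of the cells of one of them, and 1.2-fold was used as a description. B-1-type and follicular-type sums were compared with edgeR 4.0.16 (R 4.3.3) with library as a block and Benjamini-Hochberg adjustment over all genes at 0.05, and with DESeq2 1.42.0 as an alternative. The pairing of the 2 classes is by library, whose mice and handling they share. The 4 libraries come from 2 sets of mice, so p-values cover the spread between these libraries only. The fit was tested on simulated data. Scripts ran in Python 3.11.15 with scipy 1.17.1, numpy 2.4.6, matplotlib 3.10.9 and pandas 2.3.3.

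All 10 members are named, and from each list the gene with the highest mean CPM in the 2 classes and up to 3 called genes with the largest difference, and for each member the 3 genes of highest correlation with a mean of at least 10 CPM. Dusp1, Id3 and Traf6 were added after their values were seen, to complete counts. The members, lists, panels and rule were chosen with earlier results of these data known. Gene positions come from GENCODE vM39 and promoters from RefSeq, both on GRCm39.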

Additional observations from a re-analysis of the deposited data

Results flagged for a closer look

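Pairs of ratios pointed opposite ways in the progression and intervention phases with both counting intervals clear of 0. The difference between the phases was not tested, because each phase has 1 library per diet. Pou2af1 in follicular-type cells was -0.49 (log2) for P-HC24 over P-LC24 and 0.21 for I-HC32 over I-LC32, and in B-1-type cells -0.43 and 0.069. Ebf1 in B-1-type cells was -0.32 and 0.047, and -0.30 and -0.14 with kappa cells alone, where the signs are the same. Tnfrsf13c in B-1-type cells was 0.25 and -0.15, and 0.28 and 0.11 with kappa cells alone, and at a mitochondrial limit of 5% it was 0.68 and -0.30.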

How the results depend on the processing

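Of 438 values of member ratios under the alternatives, 356 stayed within the counting interval of the reported ratio, and 82 moved outside it. No ratio past 1.2-fold of the 8 members compared in B cells changed sign, but Tnfsf13b in patrolling monocytes, whose interval spans 0, went from 0.61 in the intervention phase to -0.89 as a mean of per-cell CPM. Of 141 values of member differences between the classes, 135 kept direction and side of the threshold and 6 fell to the other side, all of Tnfrsf13c or Ikzf3 and named with their results. Without the block (unpaired fit), 2768 genes were higher and 2399 lower in B-1-type cells against 3765 and 3468 with it, and without each library 3292 to 3615 and 2834 to 3180. Without TMM scaling 5402 genes were lower. Among follicular-type cells of the progression phase, members at least 1.2-fold lower were 5 relative to the median gene and 3 at 1.5-fold, and the share of all genes lower was 18.03% relative to the median gene and 6.96% at 1.5-fold. In the intervention phase they were 1 as UMIs per cell and 0 at 1.5-fold, with shares of 12.95% at a mitochondrial limit of 5%, 2.59% as UMIs per cell, 15.7% with only a minimum of 20 UMIs and 0.720% at 1.5-fold. Among B-1-type cells of the progression phase they were 1 relative to the median gene and 0 at 1.5-fold, with shares of 22.1% and 9.33%. In the intervention phase they were 3 at a mitochondrial limit of 5%, 2 with a stricter gate, with kappa cells and relative to the median gene, and 0 as UMIs per cell and at 1.5-fold, with shares of 20.6% at a limit of 5%, 6.08% as UMIs per cell, 20.2% with only a minimum of 20 UMIs and 3.05% at 1.5-fold. Shares at 1.5-fold are smaller by construction, and the cause of the other changes was not tested. The gates on UMIs per 10000 and the removal of shared barcodes, both chosen after seeing the data, changed no call of a member between the classes. No paired analysis was possible for the diets because each has 1 library. Depth limits Tnfsf13b and Tnfrsf17 in B cells, which gave at most 28 and 2 UMIs per library.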
